A study of Mus musculus with 8 samples.

Results

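The baseline composition of nuclear RNA was described in the mock-treated (Mock) group, that is, in 4 of the 8 samples of a study of mouse forebrain neuronal nuclei during drug-induced seizure. The 4 samples were chosen by their group label alone, and the pilocarpine-treated samples were not used. All Mock animals were male C57BL/6J mice aged 6 to 8 weeks with the genotype CaMKIIalpha-Cre:SUN1-sfGFP. In these mice a Cre recombinase under the promoter of Camk2a, which is active mainly in excitatory forebrain neurons, switches on a GFP-tagged protein of the nuclear envelope. The controls were first injected with scopolamine methyl nitrate (1 mg/kg), which blocks muscarinic receptors mainly outside the brain, and 30 min later with saline. They are therefore injected and not untouched controls, and every group of the study carries the Cre driver, the tagged envelope protein and the scopolamine. Tagged nuclei were pulled down with antibody-coated beads (INTACT), and directional libraries were made from polyadenylated RNA. Whether the 4 samples came from 4 mice is not stated in the labels. The p-values compare intronic with exonic counts against the spread between these samples, and that spread may be only technical.

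A newly made transcript carries its introns until the spliceosome removes them, and splicing takes place largely while the gene is still being transcribed. Nuclear RNA therefore holds precursor RNA together with spliced messages that have not been exported, and with transcripts that stay in the nucleus, such as long noncoding RNAs and messages with detained introns. For each gene the intronic share was taken as intronic counts divided by the sum of exonic and intronic counts. A share of 50% means equal counts in both regions, whatever their lengths.

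The exonic table held 29651985, 30672833, 35826383 and 29356788 counts in its columns M1 to M4, over 55471 Ensembl genes. The second table gave exonic and intronic counts separately for 18513 Entrez genes. It held 27453714, 33273462, 28491797 and 27135364 exonic counts in libraries 1 to 4, and 13491782, 16703475, 13321319 and 13768015 intronic counts. The numbers 2 and 3 did not mark the same library in both tables. Deviations from the Mock mean correlated at Pearson r 0.989 between M2 and the exonic column of library 3, and at 0.991 between M3 and that of library 2, across 11384 genes that are not independent of each other. Columns were kept under their own names, M1 to M4 for the exonic table and libraries 1 to 4 for the second, and values were not matched between the tables by number.

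Introns held 33.0%, 33.4%, 31.9% and 33.7% of the counts in libraries 1 to 4, or 33.0% ± 0.799 (SD, n = 4). Intronic counts were thus fewer than exonic counts in every library, with an exact two-sided sign-flip permutation p of 0.125, the smallest that 4 libraries allow. Genes with no intronic count in any library were left out here. Among the 12116 genes with a mean of at least 100 counts, the median gene had an intronic share of 35.3%. The quartiles lay at 23.8% and 48.4%. The share was over 50% in 22.6% of these genes. In edgeR's quasi-likelihood test with the library as a block, 2521 of 13788 genes (18.3%) had more intronic than exonic counts and 9715 (70.5%) had fewer, at a Benjamini-Hochberg adjusted p under 0.05, and 1552 differed in neither direction. Counts thus ran from nearly all exonic to nearly all intronic between genes, while a gene's share had a median SD of 1.85 points between libraries. When each region was scaled to its own total, which sets a gene of average share to no difference, 6669 genes (48.1%) lay above and 5269 (38.0%) below that average among 13879 tested.

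**Figure D1:**
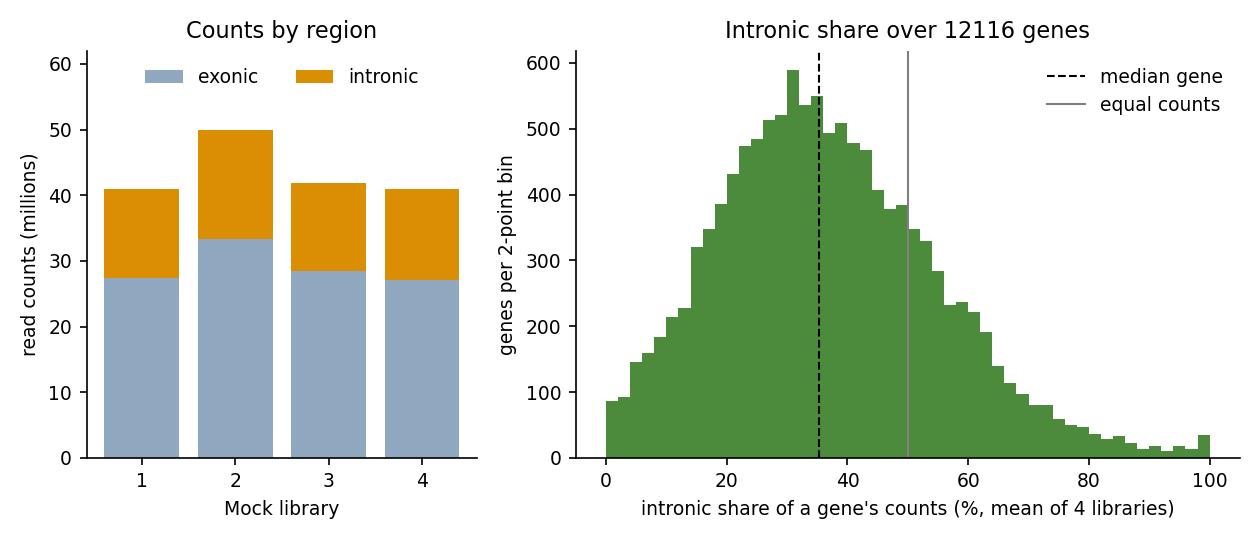
Left, exonic and intronic read counts (stacked bars) in each Mock library of the second table; right, the number of genes (12116 in all) in each 2-point bin of intronic share (%, mean of 4 libraries), with the median gene (dashed) and equal counts (grey line). Introns take close to 33.0% of each bar, and most genes lie to the left of the line of equal counts.

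Longer introns went with a higher intronic share, but with far fewer intronic reads per base. When 12072 genes were ranked by their annotated intron length and divided into 10 equal bins, the median share was 19.9% in the bin with the shortest introns (median 1.82 kb). It was between 35.4% and 38.1% in bins 4 to 9, and 45.5% in the bin with the longest introns (median 247 kb). Intronic counts per intronic base, as a percentage of exonic counts per exonic base, went the other way. This density ratio fell from 28.6% in the first to 1.98% in the last bin, and its median over all genes was 8.11%. Intron length is a divisor of the ratio, so the ratio would fall over these bins even if intronic counts did not depend on length. The share was lower in genes with more exonic sequence, at 47.2% in the bin with the shortest exons (median 1.15 kb) and 26.3% in the bin with the longest (median 9.29 kb). It was also lower in genes with a high exonic level per kb, at 42.7% in the lowest and 26.2% in the highest bin. Exonic counts set this level and are also part of the share's divisor. The share would thus fall over these bins even if intronic counts did not depend on level. Genes were admitted by the sum of both regions, so those with few exonic counts passed mainly through intronic counts. This can raise the shares of the lowest bin. Intron length, exon length and level vary together between genes, and the bins show each one without holding the others fixed. Genes that overlap no other gene gave a smaller span over the bins of intron length, 21.0 points against 25.6 in all genes, and their last bin had a median of 120 kb.

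**Figure D2:**
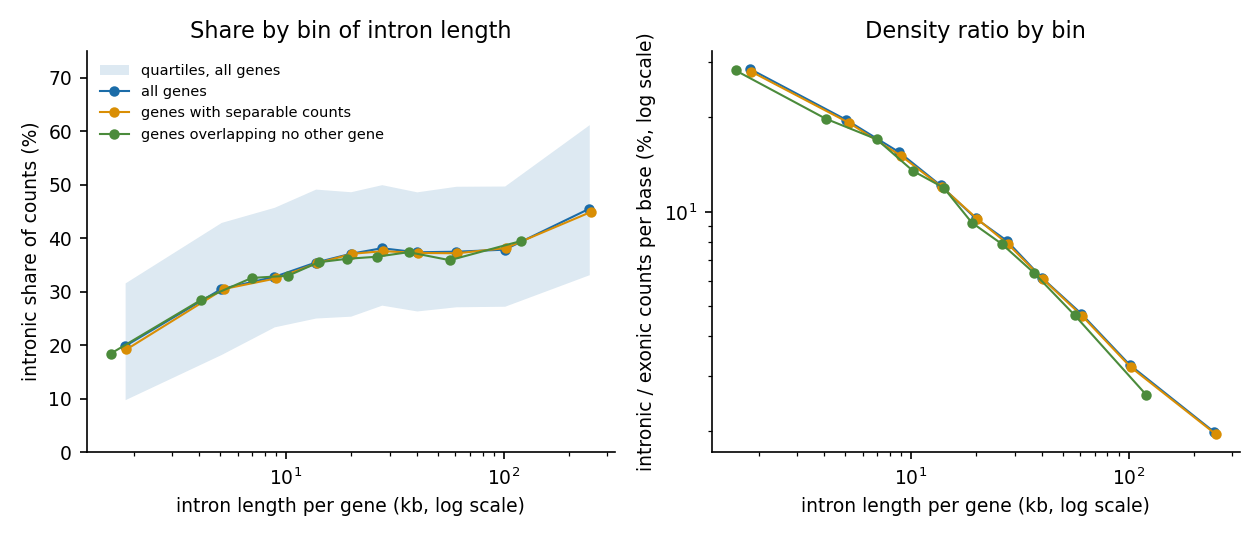
Median intronic share (%, left) and median density ratio (intronic over exonic counts per base, %, log scale, right) in 10 equal bins of genes ranked by intron length (kb, log scale), each point at its bin's median length. Lines stand for all genes, for genes with counts called separable from those of same-strand neighbours, and for genes overlapping no other gene. The shading gives the quartiles over all genes. The share rises from 19.9% to 45.5% in all genes while the density ratio, of which intron length is a divisor, falls from 28.6% to 1.98%.

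Most of the well-counted genes with very long introns had more intronic than exonic counts. A set of 164 genes had over 500 kb of intron, at least 500 counts and counts called separable from those of same-strand neighbours. Of these, 121 had a share over 50%, against 21.4% of all 9746 genes with at least 500 counts and any intronic count. Their median was 64.0% (range 10.9% to 96.8%). The 500 counts are the sum of both regions, and the limit on neighbours is relative to intronic counts. Genes with many intronic counts therefore pass more easily, which can raise the shares of this set. Immp2l, for example, passed with 32.5 exonic and 797.5 intronic counts. Kcnip4, a subunit that modulates A-type potassium channels (ENSMUSG00000029088, chr5:48389502-49524907 on the minus strand of GRCm38), had shares of 95.3%, 96.1%, 96.1% and 97.2% in libraries 1 to 4. Its 1132 kb of intron held a mean of 28018 counts against 1091 in its exons (log2 ratio 4.67 ± 0.12 SE, edgeR adjusted p = 1.01e-09). Rbfox1, a neuronal splicing regulator (chr16:5885355-7411526, plus strand), had shares of 73.6%, 73.2%, 74.5% and 80.5%. All 4 libraries of both genes lay far above the median gene.

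Long introns were not always accompanied by a high share. Grin2b, the GluN2B subunit of NMDA receptors (chr6:135713233-136173511, minus strand), has 435 kb of intron and had shares of only 12.7%, 12.3%, 16.4% and 25.0%, with library 4 well above the other 3. Psd3, a guanine nucleotide exchange factor found at synapses, had 11.6%, 9.46%, 9.19% and 13.4% in libraries 1 to 4 (mean 10.9%) with 502 kb of intron, the lowest of the 164 genes. Kcnk9, a K2P potassium leak channel, had 0.359% ± 0.128 with 33.0 kb of intron, a more usual length, or 67.8 intronic counts against 19082.

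Genes for synaptic adhesion, the surface proteins that align the membranes on both sides of a synapse, stood highest among the function lists, with a median share of 59.4% over 31 members. More intronic than exonic counts were found in 17 of 31 members and fewer in 11, where the whole table had 18.3% and 70.5%. The presynaptic neurexin Nrxn3 had 63.5% ± 3.32 (SD, n = 4). The postsynaptic neuroligin Nlgn1 had 85.3% and 894 kb of intron. Its paralogues Nlgn2 and Nlgn3, with 8.56 kb and 17.9 kb of intron, had 10.8% and 14.2%. Of the leucine-rich repeat proteins, Lrrtm4 (785 kb of intron) had 87.1% and Lrrtm2 (0.353 kb) had 0.693%. The part of intron length in these differences between paralogues was not tested. The median intron length of the list was 871 kb, the longest of all lists described.

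Receptors and channels covered a wide range. Among 24 glutamate receptor genes the median share was 46.0%, with 7 above, 13 below and 4 not different from equal counts, against 18.3% above and 70.5% below over all genes tested. The metabotropic receptor Grm7 (82.9% ± 1.57) was among the highest, and the NMDA receptor subunits Grin2b (16.6% ± 5.89) and Grin3a (23.2% ± 0.934) the lowest. GABA receptor genes had a median of 31.97%, and none of 14 had more intronic than exonic counts while 12 had fewer. Gabbr1, a GABA-B receptor subunit, had 19.1% ± 0.735. Potassium and HCN channel genes ran from Kcnk9 at 0.359% to Kcnip4 at 96.2%, with a median of 30.6% over 38 members, and their 9 above and 28 below were near the shares of the whole table. Sodium and calcium channel genes had a median of 29.6% over 26 members (3 above, 23 below).

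Genes of the release machinery were mostly exonic, with a median share of 19.2% over 27 members, of which 2 had more intronic counts and 22 fewer, against 18.3% and 70.5% of all genes tested. Vamp2, the vesicle SNARE protein, had 0.693% ± 0.235, and Slc17a7, which loads glutamate into vesicles, had 17.01%, 18.1%, 18.9% and 18.9% in libraries 1 to 4. Snap25, the SNARE partner of Vamp2 at the plasma membrane, lay at equal counts, with 51.0%, 52.3%, 49.6% and 49.2% (log2 ratio 0.03 ± 0.05 SE, edgeR adjusted p = 0.592). These 3 highly expressed genes of one process thus covered shares from under 1% to 50.5%. Postsynaptic scaffold genes had a median of 32.2% over 17 members, and their 4 above and 13 below were near the shares over all genes. Among them Dlg2, encoding PSD-93, had 72.8% ± 3.53. Calmodulin and calmodulin kinase genes had a median of 31.6% (1 above and 15 below of 16), with Camk2a at 32.7% ± 1.64.

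**Figure D3:**
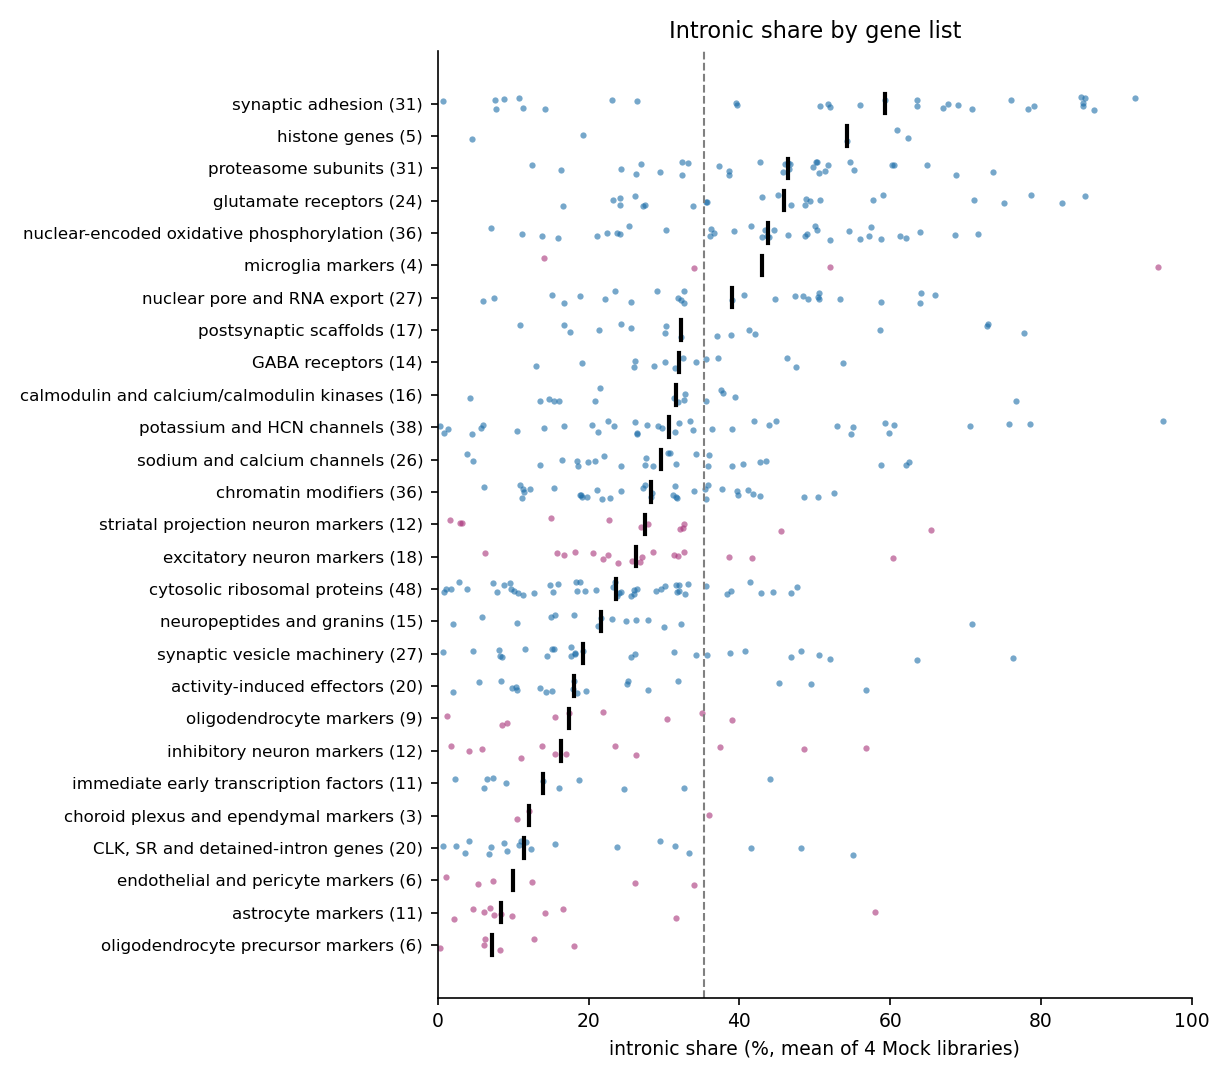
Intronic share (%, mean of 4 Mock libraries) of each member with a mean of at least 100 counts, for lists with at least 3 such members (number in brackets; function lists in blue, cell type marker lists in purple); vertical bars are list medians and the dashed line is the median over all genes, 35.3%. Among the lists plotted, synaptic adhesion genes have the highest median, 59.4%, and the oligodendrocyte precursor markers the lowest, 7.22%.

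Small housekeeping genes did not share one level. Among the nuclear-encoded subunits of oxidative phosphorylation the median share was 43.8% over 36 members, with 10 above, 21 below and 5 not different, where all genes tested had 18.3% above and 70.5% below. Ndufs4, of complex I, had 71.7% ± 1.45, and Uqcrfs1, the Rieske protein of complex III, 7.12% ± 1.10. Proteasome subunits were similar, with a median of 46.5% over 31 members (7 above, 18 below), from Psmb6 at 12.6% to Psmb2 at 73.6%. Cytosolic ribosomal protein genes had a median of 23.6% over 48 members with at least 100 counts, and 47 of 49 tested had fewer intronic counts. Their introns had a median of 2.24 kb, against 6.67 kb for the oxidative phosphorylation genes and 11.3 kb for the proteasome genes. Many processed copies of ribosomal protein genes exist, so counts of single members are uncertain. Of 36 chromatin modifier genes, 33 had fewer intronic counts and 1 more (median 28.3%), against the same 70.5% and 18.3%.

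Regulators of splicing with known detained introns, which hold particular introns in nuclear messages, mostly had low shares by this measure. Of 20 tested CLK kinase, SR protein and related genes, 18 had fewer intronic than exonic counts, 1 had more and 1 differed in neither direction. Over all genes tested, 70.5% had fewer and 18.3% more. The median share of the list was 11.4%. Clk1, a kinase of SR proteins, had 11.2%, 11.1%, 10.3% and 11.8% in libraries 1 to 4, and the SR protein gene Srsf5 had 3.65%, 3.61%, 3.27% and 3.92%. Ogt, which adds O-linked N-acetylglucosamine to proteins, had 12.4% ± 0.406. Tra2a, a splicing activator, was the highest at 55.1% ± 3.32, and the SR protein gene Srsf4 had 48.2% ± 3.85. Whether sequence of an annotated intron-retaining transcript was counted as exon is not given in the sources used here, and the part of this in the low shares was not tested. The exonic level of these genes was high, with a median of 98.2 RPKM, that is, counts scaled to the library's total (CPM) and divided by kb of exon.

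Per kb of exon, a few noncoding nuclear transcripts had some of the highest levels of all. The list as a whole did not, with a median of 17.6 RPKM over its 16 members in the exonic table and a minimum of 0.973. Snhg11, a small nucleolar RNA host gene with brain-enriched expression (ENSMUSG00000044349, chr2:158375638-158386145, plus strand), reached 1662 ± 177 RPKM (SD, n = 4). Meg3, a maternally expressed transcript of the imprinted Dlk1-Dio3 region (chr12:109541001-109571726, plus strand), had 21871, 23782, 20638 and 22810 CPM in M1 to M4, or 1231 ± 74.2 RPKM. Malat1, a transcript of nuclear speckles (chr19:5795690-5802672, minus strand), varied more, with 9399, 5633, 7120 and 9914 CPM, or 1148 ± 286 RPKM. Rian, also imprinted and from the same region as Meg3, had 176 ± 4.46 RPKM, and Miat 317 ± 31.2 RPKM. These 5 genes held 5.06% ± 0.271 of all exonic counts. Of these, Snhg11 was the one listed in the second table, where its share was 0.689% ± 0.122. It did not meet the criteria for separable counts given below, so this share is uncertain. Genes annotated as protein-coding held 93.2% ± 0.230 of exonic counts, those annotated as long noncoding RNA 5.63% ± 0.201, and the mitochondrial genome 0.0297% ± 0.0152. The 5 highest genes of the long noncoding class held 66.8% of its counts, less than the 5 genes named above. The named genes are therefore not all in that class of the annotation.

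The excitatory neuron genes Camk2a and Slc17a7 were read at high exonic levels, far above the median of 17.9 RPKM over the 18 excitatory neuron markers. Camk2a, the alpha subunit of calmodulin kinase II and the source of the Cre promoter, had 182 ± 23.8 RPKM and Slc17a7 185 ± 18.1 RPKM. Actb, cytoplasmic actin, had 159 ± 8.76 RPKM and Gapdh, a glycolytic enzyme, 81.5 ± 6.15 RPKM. The groups of 4 values of Slc17a7 and Gapdh did not overlap, while Actb lay nearer to Slc17a7 and Camk2a. The intronic shares of the reference genes were low, with 2.85% ± 0.329 for Actb and 14.6% ± 2.76 for Gapdh.

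Genes of neuronal activity were read in these nuclei, mostly from exons and with a wide spread. Of 12 immediate early transcription factor genes tested, 12 had fewer intronic counts, against 70.5% of all genes tested, and the median share was 13.99%. Activity-induced effectors had a median of 18.0%, with 18 below, 1 above and 1 not different of 20, where the whole table had 18.3% above. Fos, a subunit of AP-1, had 8.43, 12.9, 9.32 and 29.7 CPM in M1 to M4, and Arc, which acts in synaptic scaling, 72.1, 122, 99.8 and 248 CPM. The column M4 was the highest for both, at over 2 times the lowest column. Fos shares were 5.04%, 5.75%, 11.3% and 14.4% in libraries 1 to 4, and those of Arc 6.77%, 7.05%, 8.77% and 10.8%. Other activity genes did not follow this order. Homer1, a postsynaptic scaffold with activity-dependent isoforms, had 121, 90.9, 165 and 105 CPM, and Bdnf, a neurotrophin, had 23.2, 15.7, 24.8 and 14.3 CPM, so that M4 was the lowest for Bdnf. The summed level of the immediate early genes was 593, 799, 692 and 1069 CPM in M1 to M4.

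Excitatory neuron markers had the highest levels of the marker lists. The 18 markers summed to between 3574 and 4185 CPM in the 4 columns, with a median of 17.9 RPKM and Nrgn, a calmodulin-binding postsynaptic protein, highest at 235 RPKM. The 15 inhibitory neuron markers summed to between 371 and 469 CPM, with Gad1, which makes GABA, at 8.43 ± 1.07 RPKM. The 12 markers of striatal projection neurons, inhibitory cells in which Camk2a is also active, summed to between 771 and 1051 CPM. Markers of other neurons that release monoamines, acetylcholine or hypothalamic peptides summed to 13.9 CPM or less. None of the 112 markers was at 0 in all 4 columns, and the serotonin transporter gene Slc6a4 was the lowest, with a mean of 1 count.

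Markers of glial and vascular cells were also read, at levels that differed between the columns. The 11 astrocyte markers summed to 1061, 932, 1406 and 1356 CPM in M1 to M4, of which Slc1a2, the main glutamate transporter of astrocytes, gave a mean of 786 CPM. Oligodendrocyte markers summed to 347, 338, 476 and 452 CPM, endothelial and pericyte markers to 25.3, 23.8, 52.8 and 42.2 CPM, and microglia markers to between 41.6 and 55.9 CPM. M3 and M4 were above M1 and M2 in each of these 4 lists. Mitochondrially encoded transcripts showed the same division, with 0.0165%, 0.0170%, 0.0461% and 0.0392% of exonic counts. It was not particular to these lists. Inhibitory neuron markers summed to 398, 371, 469 and 428 CPM in M1 to M4. Activity-induced effectors summed to 1367, 1395, 1610 and 1532 CPM. Choroid plexus and ependymal markers (41.1, 55.0, 68.9 and 54.4 CPM) did not follow it, nor did excitatory neuron markers (3574, 4185, 4178 and 3915 CPM). The labels name no batch that would set M3 and M4 apart from M1 and M2. In bulk nuclei, fewer nuclei of a type and less RNA per nucleus cannot be told apart.

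**Figure D4:**
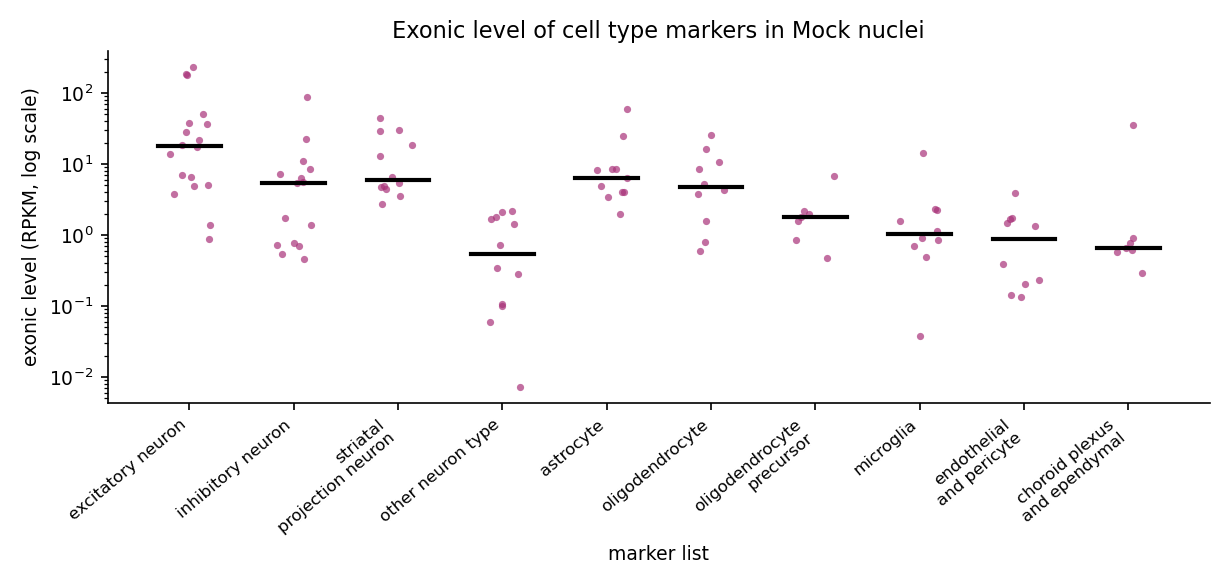
Exonic level (RPKM, log scale, mean of columns M1 to M4) of each cell type marker, one point per gene, with the median of its list as a bar. Excitatory neuron markers have the highest median, 17.9 RPKM, and the medians of the astrocyte and striatal projection neuron lists are 6.32 and 6.06 RPKM.

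Intronic shares of astrocyte and oligodendrocyte lineage markers were low. The median was 8.37% over 11 astrocyte markers, 17.4% over 9 oligodendrocyte markers and 7.22% over 6 markers of oligodendrocyte precursors, against 26.3% over the 18 excitatory neuron markers and 35.3% over all genes. Fewer intronic than exonic counts were found for 10 of 11, 9 of 9 and 6 of 6 tested markers of these 3 lists and for 17 of 18 of the excitatory neuron list, where the whole table had 70.5%. Slc1a2 had a share of 6.17% and Gja1, a gap junction protein of astrocytes, 2.21%, while Aldh1l1, a folate enzyme of astrocytes, had 58.0%. Microglia markers had a median of 43.0% over 4 members, or 34.03% over the 3 with separable counts, and 8 of 10 tested had fewer and 1 more intronic counts. Inhibitory neuron markers had a median of 16.3% over 12 members, endothelial and pericyte markers 9.92% over 6, and choroid plexus and ependymal markers 12.1% over 3. Low medians were thus not particular to the astrocyte and oligodendrocyte lineage lists. Marker lists differ in gene structure as well, with a median of 10.9 kb of intron for the astrocyte and 31.8 kb for the excitatory neuron list, and the part of intron length in these medians was not tested.

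At the low end of the scale stood genes with hardly any intronic count. Fth1, the ferritin heavy chain (chr19:9980598-9985098, plus strand), had 9, 1, 4 and 2 intronic counts against 2251, 3602, 2603 and 2377 exonic counts, a share of 0.166% ± 0.163. Zcchc18, a zinc-finger gene with 0.442 kb of intron, had 0.209% ± 0.0199 with a mean of 11104 exonic counts. Rsrp1, an arginine- and serine-rich protein gene at 659 ± 84.1 RPKM, had 0.726% ± 0.0883. A further 253 genes with annotated introns and at least 100 exonic counts had 0 intronic counts in all 4 libraries. Of these, 61.7% overlapped another gene on the same strand, against 23.9% of the 11342 such genes with intronic counts. How the authors treated reads of overlapping genes is not given in the sources used here, and a count of 0 in these genes is therefore uncertain.

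At the high end, many genes overlapped a well-expressed neighbour. Of the 61 genes with a share of at least 90% and at least 500 counts, 58 have a gene model. For 29 of the 58 (50.0%), genes that overlap them on the same strand held exonic counts of at least 10% of their intronic counts. The same held for 3.54% of the 9746 genes with at least 500 counts and any intronic count. Epo, the erythropoietin gene, had 7628 intronic and 0.75 exonic counts on average, and Gnb2, a G protein subunit gene that overlaps it in the annotation, had 7322 exonic counts. Slc22a14 had 5008 intronic counts beside 4105 exonic counts of Oxsr1, and Prn had 7712 beside 7123 of the prion protein gene Prnp. The intronic counts of these host genes thus cannot be told apart from their neighbours' exons. The 2 genes with most intronic counts were of another kind. Galnt2 had 88730 intronic counts and 2856 exonic counts in the second table but 4.5 counts in the exonic table, and Btbd35f20, a single-exon gene in the annotation, had 65222 intronic counts and 0 exonic counts, so both values are uncertain. Counts were called separable in 15634 genes by 3 criteria: an annotated intron, same-strand neighbours under the 10% limit and exonic counts within 2-fold between the tables. Genes on the other strand were not part of these criteria. Fbxo36 was thus called separable with a mean of 958 intronic counts, beside 11921.5 exonic counts of genes on the other strand. Whether counting used strand is not given, so the counts of such genes remain uncertain. Among the genes called separable, 2275 of 13145 tested (17.3%) had more and 9371 (71.3%) fewer intronic counts, and the median share was 35.03%.

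Replicate libraries varied more in introns than in exons. The SD of log2(CPM + 0.5) between libraries had a median of 0.12 for exonic and 0.15 for intronic counts in genes with at least 100 counts in that region, and the intronic SD was the larger in 68.4% of 10161 genes measured in both. The common biological coefficient of variation from edgeR was 10.1% for exons and 12.4% for introns. Ribosomal protein and oxidative phosphorylation genes were among the steadiest, both with a median exonic SD of 0.08, and the immediate early genes had a median of 0.54 over 11 members.

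The genes of widest exonic spread divided the libraries in pairs. Fabp4, a fatty acid binding protein of adipocytes, had 0.122, 6.64, 0.0717 and 5.38 exonic CPM in libraries 1 to 4, and Car3, a carbonic anhydrase of muscle and fat, 0.855, 6.32, 1.05 and 5.50. Alb, the serum albumin gene, had the opposite order with 22.7, 7.68, 25.3 and 6.75, as did the keratin gene Krt14 with 5.69, 1.38, 6.19 and 1.00. Libraries 2 and 4 were thus on one side and libraries 1 and 3 on the other for these 4 genes, which are known from tissues other than brain. By the correlations above, M3 is library 2 and M2 is library 3. The division is thus the same as that of M3 and M4 against M1 and M2 above. It was seen there in glial, vascular and mitochondrial levels and in some lists of neuronal genes. The part of those levels in these results was not tested. Xlr4a was high in library 3 alone, with 6.36 CPM against 0.200 or less.

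Library 4 stood apart in the longest genes. The 164 genes with over 500 kb of intron had a median share of 63.0%, 61.2%, 61.9% and 69.0% in libraries 1 to 4, and library 4 held the highest of the 4 shares in 141 of them and the lowest in 1. In the tenth of genes with the shortest introns the medians were 19.7%, 18.7%, 20.0% and 20.4%, so library 4 differed little there. Ptprd, a receptor phosphatase of synaptic adhesion, had 46.1%, 46.0%, 52.6% and 58.0%, so that its mean of 50.7% covers libraries on both sides of equal counts (edgeR adjusted p = 0.746). Celf2, an RNA-binding regulator of splicing, had 40.0%, 39.8%, 39.8% and 47.0%. The same library had the highest shares of Fos and Arc, and it was highest in 75 of the 117 genes of widest exonic spread.

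**Figure D5:**
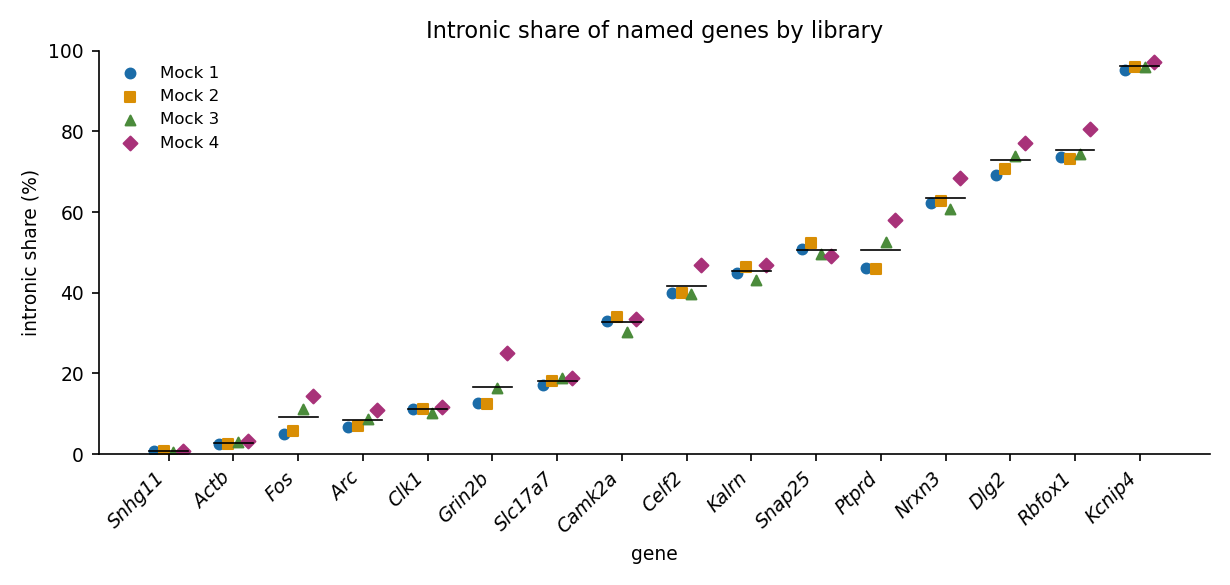
Intronic share (%) of 16 named genes in each of the 4 Mock libraries of the second table (symbols), with the mean as a bar, ordered by mean share. Library 4 (diamonds) is the highest for Grin2b, Celf2, Ptprd, Nrxn3, Dlg2 and Rbfox1, while Slc17a7, Clk1 and Snap25 lie close together in all libraries.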

How the data were processed

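The authors deposited raw read counts per gene, as whole numbers, in both tables, and the values were used as deposited. Per the submitters' processing notes, the genome was mm10, and edgeR, R 4.1.1, STAR 2.7.1a, HTSeq 0.11.2 and Trimmomatic 0.39 were used, without their roles. Not given in the sources used here are the annotation, whether counting used strand, and how reads were divided between exons and introns. A gene and a partner that overlaps it, on either strand, may therefore share reads.

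Gene models came from GENCODE vM21 on GRCm38, and 99.5% of the 18513 Entrez genes matched one. Exon length is the union of annotated exons, and intron length is the rest of the gene. CPM are counts scaled to the column total, with no further normalization, and RPKM divide these by exon length in kb.

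Intronic and exonic counts of the 4 Mock libraries were compared with edgeR 4.0.16 in R 4.3.3 (quasi-likelihood F-test). The library was a block, and both regions of a library had the same size, from TMM factors of their summed counts, so that no difference means a share of 50%. Genes passed filterByExpr with a minimum count of 10 and had at least 1 intronic count. DESeq2 1.42.0 was an alternative. In simulated data of this comparison, a 1.5-fold difference was called in 50.7% of 67 genes, a 2-fold difference in 94.0% of 67, and a 4-fold difference in 100% of 66, beside 13540 genes with none. The simulated exonic and intronic counts were independent, with the same dispersion for every gene and nearly all genes at equal counts. In the data the columns of a library correlated and most genes differed, so these rates do not carry over directly.

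Counts of any 2 libraries differed beyond sampling noise, with a chi-square of 15.0 to 34.8 per degree of freedom, and all 4 libraries were used. Same-numbered exonic and intronic columns come from 1 library, and their deviations from the Mock means correlated at Pearson r 0.640, 0.608, 0.586 and 0.511.

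The members and gene lists were chosen with earlier results of these data known, and lists are given by counts and medians with no test. Named genes were 24 fixed genes, the 10 highest by exonic and by intronic CPM, the 12 highest and 12 lowest shares with at least 500 counts, the 2 highest and 2 lowest per function list, and the 8 of widest spread per region. Genes with separable counts, genes of over 500 kb of intron, and any further list members given by name were chosen after seeing the data. Genes of the rule that are not named are covered by counts or not reported here.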

Additional observations from a re-analysis of the deposited data

Results flagged for a closer look

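Of 187 groups of 4 library values checked, 6 had 1 library whose gap to the others exceeded Dixon's 95% limit for 4 samples, where chance gives about 1 in 20 groups. Celf2, with 847 kb of intron, had a share of 47.0% in library 4, while the other 3 lay between 39.8% and 40.0%. Hs6st3, a heparan sulfate sulfotransferase gene with 730 kb of intron, had 90.5% in library 2, below 95.5% to 96.1% in the others. Col6a4, a collagen gene, had 30.8% in library 3, above 23.6% to 24.6%.

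The other 3 genes lay at the ends of the scale, where a few reads set the share. Tmx2 had 0.0680% in library 3 against 0.315% to 0.355%, and Dpm1 had 0.274% in library 3 against 0.596% to 0.654%. Slc22a14, whose intronic counts cannot be told apart from the exons of Oxsr1, had 99.96% in library 2 against 99.98% in the other 3.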

How the results depend on the processing

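Which direction prevailed depended on what counts as no difference. With each region scaled to its own total, 6669 genes had more intronic counts and 5269 fewer, against 2521 and 9715 with a shared library size; this follows from the construction of that setting. With counts divided by intron and exon length, 141 genes had more intronic counts. Restricting the test to genes overlapping no other gene left 6120 genes, of which 886 had more and 4524 fewer; the median share over genes was then 33.4% and the span over bins of intron length 21.0 points. The mean share per library was 33.0% over all counts and 35.3% as the median over genes.

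DESeq2 gave 2376 and 9488 genes, and the fit with no replicate block, in which the exonic and intronic columns of a library are not paired, gave 2276 and 9350. With genes of no intronic count included, 2521 of 14144 tested genes had more and 10072 had fewer intronic counts. Leaving out each library in turn gave 2375 to 2541 genes with more and 9554 to 9653 with fewer intronic counts, 32.7% to 33.3% for the share of all counts and 35.02% to 35.7% for the median gene. All 57 list medians computed from summed counts or from genes with separable counts stayed within 1.5 times their value. The sign-flip permutation test of the library totals cannot give a p under 0.125 with 4 libraries.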
